A study of Mus musculus with 6 samples.

Results

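The immunity-related GTPases, or IRG proteins, are interferon-inducible GTPases of vertebrate cells, and 5 mouse IRG genes, Irgm1, Irgm2, Igtp (also called Irgm3), Gm12250 (also called Irgb10) and Iigp1 (also called Irga6), were followed here. They were found by their Entrez gene identifiers, 15944, 54396, 16145, 631323 and 60440, and are 5 of the 36528 gene identifiers in the deposited tables. RNA was sequenced from mouse bone marrow HOXB-8 cells in 2 groups of 3 libraries. In the IRF2_KO group the gene for interferon regulatory factor 2 had been disrupted with a single guide, named gRNA2. The Parental group was Irf2 wild type and carried a control guide named Luc. Lines of this kind are usually held as myeloid progenitors by a conditional HoxB8 oncoprotein; the extraction notes call them iMACs. The labels do not say whether the libraries came from separate clones or cultures, so p-values measure only the spread between libraries, which may be technical, and all IRF2_KO libraries share the 1 guide.

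The IRF2_KO libraries held 29994755, 29070160 and 34051219 gene counts, against 39011542, 33422590 and 39925038 in the Parental libraries, and 3 reads corresponded to between 0.0751 and 0.103 CPM, the count scaled to library size (with TMM factors for the levels below). Irf2 itself stood at 40.3, 36.9 and 40.1 CPM in IRF2_KO libraries and at 41.1, 42.4 and 41.1 CPM in Parental libraries (edgeR adjusted p = 0.209). A guide can disrupt a gene without lowering its transcript, so this level neither shows nor denies the disruption. Both groups carried transcript of Hoxb8, at mean levels of 135 CPM in IRF2_KO and 127 CPM in Parental libraries. Of the macrophage markers C1qa, C1qb and C1qc, no group held more than 2 reads in all. The summed CPM of 8 progenitor markers lay between 609 and 643 in IRF2_KO libraries and between 878 and 880 in Parental libraries, and 4 of the 5 tested fell, Kit and Mycn among them. The summed CPM of 12 macrophage markers lay between 655 and 678 in IRF2_KO libraries and between 349 and 359 in Parental libraries, and of the 8 tested 6 rose and 1, Cd14, fell. Of 10 neutrophil markers 5 rose and 3 fell, with sums of 9430 to 10905 CPM in IRF2_KO and 11337 to 12333 CPM in Parental libraries. Of 8 lymphoid markers, 5 had no read in any library and none could be tested, and of 6 stromal and endothelial markers 1, Pecam1, could be tested and rose, with sums of 1.18 to 2.17 CPM in IRF2_KO and 0.606 to 0.845 CPM in Parental libraries. Over all 13353 tested genes, 23.6% rose and 23.6% fell. These marker levels moved with the group, and their part in the results below was not tested.

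IRG proteins act in cell-autonomous defence in mice. Interferon-gamma and, in many cells, type I interferon induce their genes through transcription factors that include interferon regulatory factors, and the proteins gather on the vacuoles of intracellular parasites and bacteria and disrupt them. The family has a regulatory branch, the IRGM proteins, which sit on the membranes of host organelles and keep the other branch from activating there, and an effector branch, which attacks pathogen vacuoles. IRF2 is a DNA-binding protein of the interferon regulatory factor family, known both as an antagonist of IRF1 at interferon-responsive promoters and as an activator of some genes.

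The branches are told apart by a residue of the nucleotide-binding P-loop, methionine in IRGM proteins and lysine in effectors. The coding bases of this loop are shown for the 4 members with enough reads to test and for Ifi47 (also called Irgd), from the GENCODE M21 transcripts of GRCm38, with the codon of that residue in capitals. For Gm12250, which GENCODE M21 lists as a processed pseudogene, the longest open reading frame was read.
Irgm1: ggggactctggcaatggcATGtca
Irgm2: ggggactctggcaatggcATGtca
Igtp: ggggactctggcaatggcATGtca
Gm12250: ggggagacaggggcagggAAGtcc
Ifi47: gggcagtctgggactggcAAGtcc
The loop began at codon 83 of 409 in Irgm1, at codon 83 of 407 in Irgm2, at codon 91 of 423 in Igtp and at codon 75 of 417 in Gm12250. Irgm1, Irgm2 and Igtp shared all 24 bases of the stretch, with ATG, a methionine codon, in capitals, whereas Gm12250 and Ifi47 had AAG, a lysine codon. Over the whole coding sequence Irgm2 and Igtp were 69.7% identical, Irgm1 and Igtp 66.8%, Irgm1 and Irgm2 65.3%, and Gm12250 was between 55.0% and 56.1% identical to each of the others.

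The sequences before the starts of the genes are shown because interferon-stimulated response elements, the sites that interferon regulatory factors bind, lie close to the start in many interferon-induced genes. The RefSeq promoter table of GRCm38.p6, which runs from 250 bases before to 50 bases after each start, matched 4 of the 5 members, all but Iigp1. The 150 bases before the start are printed in the direction of the gene, with capitals for matches, on either strand, to the core letters of such an element, taken as GAAA, any 2 bases and GAAA again, and called the response element pattern below. The stretches are chr11:48871421-48871570 on the minus strand for Irgm1, and on the plus strand chr11:58214827-58214976 for Irgm2, chr11:58199406-58199555 for Igtp and chr11:58183693-58183842 for Gm12250.
Irgm1: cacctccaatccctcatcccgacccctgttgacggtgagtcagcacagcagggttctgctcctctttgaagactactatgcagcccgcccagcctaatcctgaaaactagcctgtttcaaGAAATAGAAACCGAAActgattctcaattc
Irgm2: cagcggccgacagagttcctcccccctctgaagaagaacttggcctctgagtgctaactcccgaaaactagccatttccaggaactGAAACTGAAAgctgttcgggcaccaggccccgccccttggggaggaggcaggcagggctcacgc
Igtp: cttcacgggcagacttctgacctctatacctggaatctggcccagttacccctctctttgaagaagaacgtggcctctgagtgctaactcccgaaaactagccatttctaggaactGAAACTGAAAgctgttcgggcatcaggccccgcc
Gm12250: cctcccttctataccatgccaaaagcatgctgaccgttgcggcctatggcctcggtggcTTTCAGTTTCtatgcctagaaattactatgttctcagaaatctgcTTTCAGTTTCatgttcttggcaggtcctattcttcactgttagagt
The response element pattern was found in 4 of 4 member promoters and in 3.44% of all 32851 promoters of the table. Irgm1 had 2 overlapping matches, at -30 to -21 and -24 to -15 counted from the start, Irgm2 1 at -64 to -55, Igtp 1 at -34 to -25, and Gm12250 2, at -91 to -82 and -46 to -37, both on the other strand. A second pattern, TTCNNNGAA, the core letters of the gamma-activated site, an element of interferon-gamma responsive promoters, was found in 3 of 4 member promoters and in 8.30% of all promoters. It lay at -75 to -67 in Irgm2, at -45 to -37 in Igtp and at -61 to -53 in Gm12250, in each case outside the matches of the response element pattern, and these letters were not in the Irgm1 window. Within the 250 bases before their starts, Irgm2 and Igtp held a stretch of near copies. In this best-matching stretch, found by local alignment, 197 of 221 aligned positions were identical (89.1%). Binding was not measured, and a match of letters is a description only.

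All 3 IRGM genes were several-fold higher in IRF2_KO cells, from 3.42-fold for Irgm1 to 7.43-fold for Igtp, and the scarce effector Gm12250 was 3.66-fold higher. Iigp1 lay at the limit of detection in both groups. Of the 5 members, 4 passed the filter on low counts, and 4 of those 4 rose at an adjusted p below 0.05, where 23.6% of the tested genes rose and 23.6% fell, 47.2% in all. Gm12250 had 12, 15 and 5 reads in Parental libraries, so it may have passed only through its 35, 30 and 31 IRF2_KO reads. Its place in the counts of 4 members here is then not independent of its rise. It was also called without the filter, at a log2 fold change of 1.86. The 3 IRGM genes had far more reads in both groups. In CPM, all IRF2_KO libraries were above all Parental libraries for 4 of 4 tested members and for 26.4% of all tested genes. At least 2-fold higher were 4 of 4 members and 4.79% of all tested genes. The median log2 fold change was 2.13 over the 4 members and -0.01 over all tested genes. In bulk RNA, fewer cells of a type and less RNA per cell cannot be told apart, and the same holds for more of either.

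Irgm1 (chr11:48865245-48871420, minus strand) encodes an IRGM protein of the Golgi, lysosomes and mitochondria, and mice without it are highly susceptible to several intracellular pathogens. It had 1894, 1885 and 2203 reads in IRF2_KO libraries, against 740, 652 and 765 reads in Parental libraries. Per length, these were deposited levels of 26.9, 28.1 and 27.8 reads per kilobase of gene model, adjusted by the authors' size factors (RPKM), in IRF2_KO and of 7.91, 8.17 and 8.03 RPKM in Parental libraries. All IRF2_KO libraries lay above all Parental libraries, and within each group the values were close together. The log2 fold change was 1.77 (SE 0.05, edgeR quasi-likelihood test, Benjamini-Hochberg adjusted p = 1.32e-14). The mean of 27.6 ± 0.614 RPKM in IRF2_KO libraries was above that of 76.5% of tested genes, and the mean of 8.04 ± 0.128 RPKM in Parental libraries above that of 47.9% (SD, n = 3 each).

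Irgm2 (chr11:58214977-58222783, plus strand) encodes an IRGM protein of the Golgi that in mouse macrophages also restrains the caspase-11 inflammasome. It had 3726, 3476 and 4097 reads in IRF2_KO libraries, against 979, 731 and 973 reads in Parental libraries. The deposited levels were 34.6, 33.9 and 33.9 RPKM in IRF2_KO and 6.85, 5.99 and 6.68 RPKM in Parental libraries. The groups were far apart, with Parental library 2 the lowest of all. The log2 fold change was 2.38 (SE 0.05, edgeR adjusted p = 2.28e-16), a 5.20-fold difference. Its mean of 34.1 ± 0.446 RPKM in IRF2_KO libraries exceeded 81.0% of tested genes, and its mean of 6.51 ± 0.454 RPKM in Parental libraries exceeded 43.4% (SD, n = 3 each).

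Igtp (chr11:58199556-58207592, plus strand) encodes Irgm3, an IRGM protein of the endoplasmic reticulum and lipid droplets that mice need to resist Toxoplasma gondii. It had 3484, 3384 and 3889 reads in IRF2_KO libraries, against 638, 513 and 636 reads in Parental libraries. The deposited levels were 56.3, 57.3 and 55.8 RPKM in IRF2_KO and 7.76, 7.31 and 7.59 RPKM in Parental libraries. Again no library of one group reached the values of the other, and the distance was wider than for Irgm1 and Irgm2. The log2 fold change was 2.89 (SE 0.05, edgeR adjusted p = 5.11e-18), which placed Igtp at rank 77 by fold change among the 13353 tested genes, with Irgm2 at rank 125, Gm12250 at rank 211 and Irgm1 at rank 240. Its mean of 56.5 ± 0.752 RPKM in IRF2_KO libraries exceeded 89.0% of tested genes, and its mean of 7.55 ± 0.227 RPKM in Parental libraries exceeded 46.6% (SD, n = 3 each).

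Igtp and Irgm2 lie next to each other on the same strand and share sequence. The authors counted reads that align uniquely to a gene model, so reads from a stretch present in both genes could be missing from both. Of the Igtp transcript's stretches of 50 bases, 11.8% also occurred in Irgm2 transcripts, and of its stretches of 100 bases 5.16%. GENCODE M21 draws an upstream exon of Irgm2 of 162 bases, chr11:58199618-58199779, inside the first exon of Igtp. The deposited RPKM and counts together imply a gene model of 3514 bases for Irgm2, against 3690 exonic bases in GENCODE with that exon and 3528 without it. For Igtp the implied model was 2023 bases and the GENCODE exonic length 2022 bases. For the other members the lengths were far apart, at 2300 implied and 5810 GENCODE bases for Irgm1, 2702 and 1274 bases for Gm12250, and 3128 and 5823 bases for Iigp1. Levels, shares and ranks in RPKM rest on the implied lengths, whereas fold changes between groups do not depend on length. In GENCODE transcripts, stretches of 50 bases were shared with other genes for 0.379% of Irgm1, for none of Gm12250 and for 1.69% of Iigp1. For Gm12250 this search covered 1274 bases, fewer than the 2702 implied, so the rest of its counted model was not searched.

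Gm12250 (chr11:58183843-58190198, plus strand) encodes Irgb10, an effector that in mouse macrophages helps break open bacteria together with guanylate-binding proteins. It had 35, 30 and 31 reads in IRF2_KO libraries, against 12, 15 and 5 reads in Parental libraries. The deposited levels were 0.423, 0.380 and 0.333 RPKM in IRF2_KO and 0.109, 0.160 and 0.0447 RPKM in Parental libraries. The groups did not overlap, but the Parental libraries differed 3-fold in reads among themselves. The log2 fold change was 1.87 (SE 0.34, edgeR adjusted p = 0.000219). Its mean of 0.379 ± 0.0450 RPKM in IRF2_KO libraries exceeded only 9.05% of tested genes, and the mean of 0.105 ± 0.0578 RPKM in Parental libraries 2.93% (SD, n = 3 each). On the log2(RPKM + 1) scale the same difference was 0.32, because 1 RPKM is larger than either level.

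Iigp1 (chromosome 18, 60373616 to 60392634, plus strand) encodes Irga6, an effector that assembles on the Toxoplasma vacuole. It had 0, 3 and 3 reads in IRF2_KO libraries, against 1, 0 and 0 reads in Parental libraries. The groups overlapped at 0 reads, and the gene was too scarce to test. The 6 reads of IRF2_KO libraries and the 1 read of Parental libraries, scaled by library size with TMM factors, gave a ratio of 7.40. Its 95% exact binomial interval was 0.897 to 340, which covers counting error only. No difference in Iigp1 was detectable at this depth.

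**Figure D1:**
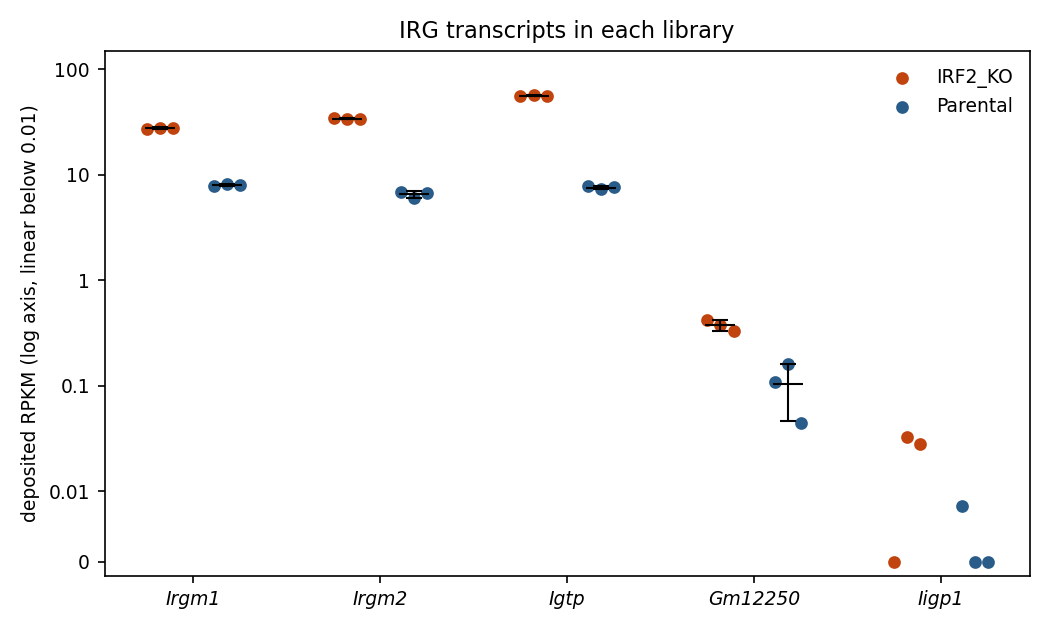
Deposited RPKM of the 5 IRG genes in each library (points) on a log axis that is linear below 0.01, IRF2_KO left of Parental, with the mean and SD of 3 libraries as bars where no library is at 0. For Irgm1, Irgm2, Igtp and Gm12250 all IRF2_KO points lie above all Parental points, whereas Iigp1 has libraries at 0 in both groups.

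The 5 genes together summed to 118.3, 119.7 and 117.9 RPKM in IRF2_KO libraries, against 22.6, 21.6 and 22.3 RPKM in Parental libraries. The mean sum of 119 ± 0.946 RPKM in IRF2_KO was 5.34 times that of 22.2 ± 0.518 RPKM in Parental libraries (SD, n = 3 each). The exact two-sided permutation test gave p = 0.1, the smallest that 3 libraries against 3 allow. No pool value of one group came near the other group.

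The make-up of this pool, with the model lengths that the deposited RPKM imply, differed between the groups. Igtp made up 47.6%, 47.9% and 47.4% of the summed RPKM in IRF2_KO libraries, against 34.3%, 33.8% and 34.0% in Parental libraries, a difference of 13.6 percentage points. Irgm1 made up 22.8%, 23.5% and 23.6% in IRF2_KO libraries, against 35.0%, 37.8% and 35.9% in Parental libraries, a difference of -12.9 percentage points. For both genes no share of one group reached the other, and each exact permutation p was 0.1, the smallest possible, or 0.25 adjusted over the 5 members. Irgm2 made up 28.8 ± 0.495% of the pool in IRF2_KO and 29.3 ± 1.38% in Parental libraries (SD, n = 3 each), with overlapping values and an exact permutation p of 0.6. Gm12250 held 0.319% in IRF2_KO and 0.474% in Parental libraries on average (exact permutation p = 0.4), and Iigp1 0.0170% in IRF2_KO and 0.0116% in Parental libraries, also with overlapping values.

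The order of the deposited RPKM depended on the gene models. With the implied lengths, Igtp was highest in IRF2_KO libraries, then Irgm2, Irgm1, Gm12250 and Iigp1, and Irgm1 was highest in Parental libraries, then Igtp, Irgm2, Gm12250 and Iigp1. The RPKM ranges of neighbours in each order did not overlap, although in Parental libraries Irgm1 and Igtp lay close, at 7.91 to 8.17 and 7.31 to 7.76 RPKM. With the GENCODE exonic lengths in their place, an alternative chosen after seeing the data, Igtp, Irgm2 and Irgm1 followed in that order in both groups. Irgm1 then averaged 10.9 ± 0.243 RPKM in IRF2_KO and 3.18 ± 0.0508 RPKM in Parental libraries (SD, n = 3 each). Its share of the pool was then 10.8% in IRF2_KO and 18.6% in Parental libraries, and that of Igtp 56.1% in IRF2_KO and 44.0% in Parental libraries. The direction of both differences in share was thus the same with either set of lengths, but the highest gene in Parental libraries was not.

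Ratios between members within a library do not depend on library scaling. The ratios themselves rest on the implied lengths, whereas their log2 differences between groups do not depend on length. With the GENCODE exonic lengths, Igtp lay above Irgm1 in Parental libraries as well, at means of 7.55 and 3.18 RPKM. The log2 ratio of Igtp to Irgm1 was 1.06, 1.03 and 1.01 in IRF2_KO libraries, against -0.03, -0.16 and -0.08 in Parental libraries, which as a ratio of geometric means is 2.05 in IRF2_KO and 0.939 in Parental libraries. The ratio of Irgm2 to Irgm1 was 1.24 in IRF2_KO and 0.809 in Parental libraries, and that of Igtp to Irgm2 was 1.65 in IRF2_KO and 1.16 in Parental libraries. For these 3 pairs the groups did not overlap, with log2 differences of 1.12, 0.61 and 0.51, each at an exact permutation p of 0.1, the smallest possible, or 0.20 adjusted over 6 pairs. The 3 pairs with Gm12250 overlapped between groups, with exact permutation p values of 0.4 to 0.9. Its Parental ratios to Irgm1 alone ran from -7.49 to -5.67 on the log2 scale.

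**Figure D2:**
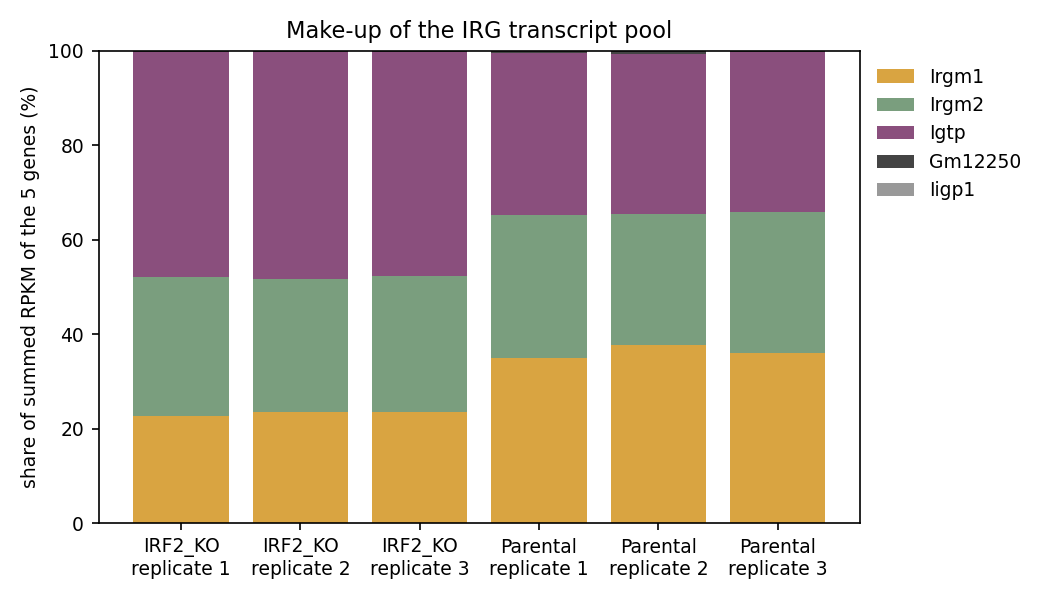
Share of each gene in the summed RPKM of the 5 IRG genes, in percent, for each of 3 IRF2_KO libraries (left) and 3 Parental libraries (right). The Igtp segment covers 47.4% to 47.9% in IRF2_KO and 33.8% to 34.3% in Parental libraries, the Irgm1 segment 22.8% to 23.6% in IRF2_KO and 35.0% to 37.8% in Parental libraries, and Gm12250 and Iigp1 are too small to see.

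The other IRG genes had for the most part few or no uniquely aligning reads, which for near copies does not show that they were silent. Of 13 listed, 12 were in the tables, 2 had enough reads to test, 3 had no read in any library, and 1 of the tested rose and 1 fell, against 23.6% of all tested genes in each direction. Ifi47 encodes the effector Irgd, whose P-loop is shown above. It had 304, 235 and 321 reads in IRF2_KO libraries, against 246, 214 and 264 reads in Parental libraries, at 4.52 ± 0.477 RPKM in IRF2_KO and 3.08 ± 0.0811 RPKM in Parental libraries (SD, n = 3 each). Scaled to library size the groups did not overlap, and the log2 fold change was 0.55 (SE 0.10, edgeR adjusted p = 0.000154), below that of each tested member. Ifi47 did not hold the response element pattern in its 300-base promoter window.

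Irgq, a relative thought to lack GTPase activity, had 816, 794 and 921 reads in IRF2_KO libraries, against 1234, 1104 and 1191 reads in Parental libraries. Its log2 fold change was -0.18 (SE 0.06, edgeR adjusted p = 0.0161). The call was lost without IRF2_KO library 3 (adjusted p = 0.0601) and without Parental library 2 (adjusted p = 0.0887), and with limma on log2(RPKM + 1), at an adjusted p of 0.0610. Irgq was thus the only tested IRG gene on the lower side, by a small margin.

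Tgtp1 and Tgtp2 encode the effector Irgb6 and are near copies, sharing 81.2% and 86.6% of their 50-base stretches with other genes, so reads cannot be placed between them with certainty. Tgtp1 had no read, and Tgtp2 had 4, 0 and 2 reads in IRF2_KO libraries against 0 reads in all Parental libraries. Both promoters held the response element pattern. 9930111J21Rik1, listed with the family and 83.2% shared with other genes by the same measure, had 14, 10 and 7 reads in IRF2_KO libraries, against 2, 1 and 2 reads in Parental libraries. This is a read ratio of 7.64 with a 95% exact interval of 2.95 to 25.2, for counting error only, and the groups did not overlap. Gm5431 had 5, 3 and 2 reads in IRF2_KO libraries, against 0, 1 and 0 reads in Parental libraries, a read ratio of 12.3 (95% exact interval 1.75 to 535). Irgc1 had 8 reads over the IRF2_KO group and 3 over the Parental group, Gm12185 had 3 in IRF2_KO and 1 in Parental, Gm4951 had 2 in IRF2_KO and 1 in Parental, and 9930111J21Rik2 had 0 in IRF2_KO and 3 in Parental. The exact interval of each of these 4 read ratios spans 1. F830016B08Rik and Gm4841 had no read in either group. The response element pattern was present in 4 of the 8 promoters of other IRG genes in the table.

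Guanylate-binding proteins, or GBPs, are the larger interferon-inducible GTPases that work with IRG proteins at vacuoles and are targeted there with the help of the IRGM branch. Of 11 GBP genes 10 could be tested, and 7 rose and 3 fell, against 23.6% of all tested genes in each direction, with a median log2 fold change of 0.73 over the list and -0.01 over all tested genes. The tested IRG members lay in a band of log2 fold changes from 1.77 to 2.89. The other tested IRG genes lay below that band, Ifi47 at 0.55 and Irgq at -0.18. The tested GBP genes ran from -1.16 for Gbp10 to 7.75 for Gbp2. Gbp2, a GBP that coats Toxoplasma vacuoles and bacteria, had 1534, 1400 and 1686 reads in IRF2_KO libraries, against 13, 8 and 5 reads in Parental libraries. In Parental libraries it was thus scarcer per length, at 0.0890 ± 0.0397 RPKM, than Irgm1, Irgm2 or Igtp, and in IRF2_KO libraries it reached 19.5 ± 0.431 RPKM (SD, n = 3 each). Gbp5 (7.72), Gbp3 (6.71) and Gbp7 (4.55) had log2 fold changes beyond those of any IRG member, whereas Gbp9 (1.08), Gbp8 (0.37) and Gbp6 (0.31) rose by less. Gbp11 (-0.98) and Gbp4 (-0.23) fell together with Gbp10. The response element pattern was found at 5 of the 5 GBP genes with an entry in the promoter table, and in 3.44% of all promoters. These genes were Gbp2b, Gbp2, Gbp3, Gbp5 and Gbp7, of which Gbp2b had no read and Gbp3 also had an entry without a match. The GBP genes that fell, and Gbp6, Gbp8 and Gbp9, had no entry, so their promoters were not searched.

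**Figure D3:**
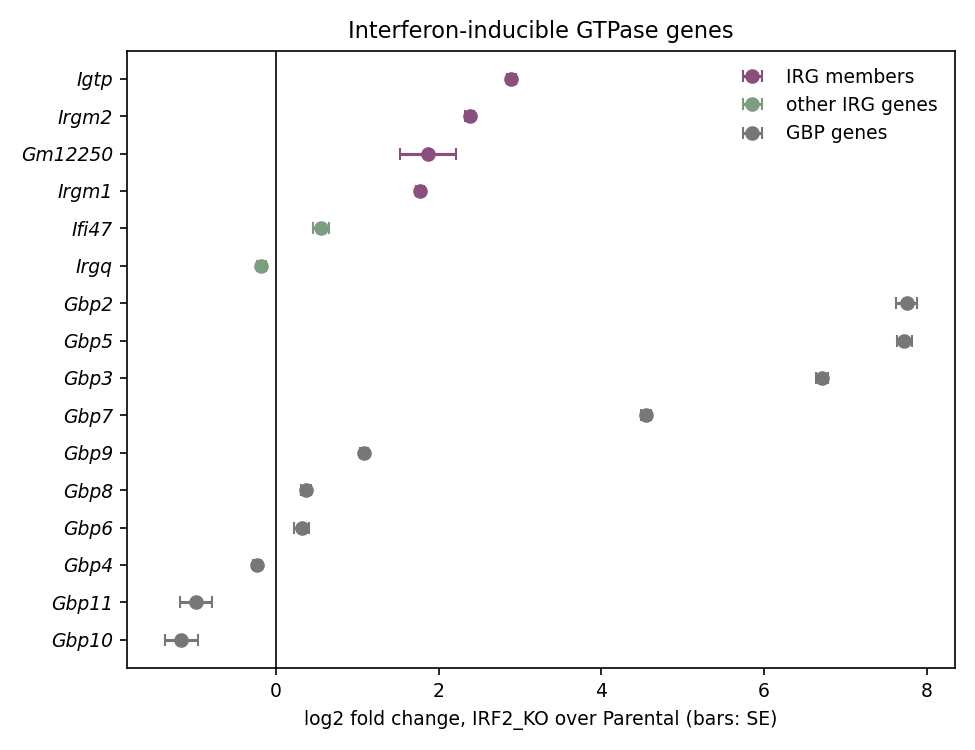
Log2 fold change of IRF2_KO over Parental with its SE (bars) from edgeR for the tested IRG members, other IRG genes and GBP genes. The 4 members lie between 1.77 and 2.89, Ifi47 lies at 0.55 and Irgq at -0.18, and the GBP genes spread from -1.16 to 7.75.

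IRGM and effector proteins are steered to membranes with the help of the autophagy conjugation machinery, which attaches LC3 and GABARAP proteins to lipids. Of its 12 listed genes, all tested, 4 rose, 1 fell and 7 did not pass, with a median log2 fold change of 0.11. The 5 calls among 12 genes were not above the 47.2% called over all tested genes. Map1lc3a, an LC3 gene, had 226, 234 and 318 reads in IRF2_KO libraries, against 151, 116 and 137 reads in Parental libraries, with a log2 fold change of 1.24 (edgeR adjusted p = 6.20e-08). The other calls were small, with log2 fold changes of 0.52 for Atg10, 0.30 for Map1lc3b, 0.30 for Gabarap and -0.17 for Atg5. The Atg5 call was lost without IRF2_KO library 2 (adjusted p = 0.0711), IRF2_KO library 3 (adjusted p = 0.156), Parental library 1 (adjusted p = 0.0742) or Parental library 3 (adjusted p = 0.161), and with DESeq2 (adjusted p = 0.0506) or limma on log2(RPKM + 1), at an adjusted p of 0.0797. All of these changes were below those of the tested members.

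Ubiquitin is laid on vacuoles that IRG proteins have marked, and 3 genes of that step were listed. Trim21, a ubiquitin ligase, had 593, 561 and 644 reads in IRF2_KO libraries, against 196, 199 and 228 reads in Parental libraries. Its log2 fold change of 1.83 (SE 0.08, edgeR adjusted p = 4.64e-12) lay close to that of Irgm1. Traf6, another ubiquitin ligase, had a log2 fold change of 0.13 (edgeR adjusted p = 0.0289). That call was lost without IRF2_KO library 1 (adjusted p = 0.0671), IRF2_KO library 3 (adjusted p = 0.0774), Parental library 2 (adjusted p = 0.117) or Parental library 3 (adjusted p = 0.111), and also with library size alone (adjusted p = 0.0952) or no filter on low counts (adjusted p = 0.0692). Sqstm1, an adaptor that binds ubiquitin, had a log2 fold change of -0.04 and did not pass the test.

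Among the genes that carry interferon signals to IRG promoters, the listed ligand genes Ifng, Ifnb1 and Ifna4 were at or near 0. Other interferon genes were not listed. Ifng and Ifna4 had no read in any library, and Ifnb1 had 0, 2 and 1 reads in IRF2_KO libraries against 0 reads in all Parental libraries. Of 11 genes of interferon-gamma signalling 10 were tested, and 6 rose, 1 fell and 3 did not pass, against 23.6% of all tested genes in each direction, with a median log2 fold change of 0.19. Irf1, an activator of IRG and GBP genes, had a log2 fold change of 0.32 (edgeR adjusted p = 0.000505), and Irf8, a myeloid activator, one of 1.06. Socs1, a feedback inhibitor of interferon-gamma signalling, rose by 1.07 on the log2 scale, and the kinases Jak2 and Jak1 by 0.22 and 0.16. The receptor chain Ifngr1 had a log2 fold change of -0.16 (edgeR adjusted p = 0.00218), and the values were 0.05 for Ifngr2, -0.02 for Socs3 and -0.10 for Ptpn2, which did not pass.

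Of 10 genes of type I interferon signalling 8 were tested, and 6 rose, 1 fell and 1 did not pass, where 23.6% of all tested genes rose and as many fell, with a median log2 fold change of 0.39. Usp18, a feedback inhibitor at the type I receptor, had 1508, 1550 and 1790 reads in IRF2_KO libraries, against 29, 20 and 36 reads in Parental libraries. Irf7, an amplifier of type I interferon expression, had 234, 305 and 307 reads in IRF2_KO libraries, against 21, 18 and 16 reads in Parental libraries. Irf9, a DNA-binding transcription factor of the type I interferon response, had 1187, 1188 and 1359 reads in IRF2_KO libraries, against 301, 254 and 286 reads in Parental libraries. In none of these 3 genes did the groups overlap, and the log2 fold changes were 6.13, 4.24 and 2.45, of which that of Irf9 fell within the band of the IRG members. Stat2 (0.52), Ifnar2 (0.26) and Tyk2 (0.26) rose by less, and Irf3 (-0.05) did not pass. The receptor chain Ifnar1 had a log2 fold change of -0.13 (edgeR adjusted p = 0.0310), a call that was lost without IRF2_KO library 2 (adjusted p = 0.0650), IRF2_KO library 3 (adjusted p = 0.104) or Parental library 3 (adjusted p = 0.147), and with DESeq2 (adjusted p = 0.0584) or limma on log2(RPKM + 1), at an adjusted p of 0.0899.

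The 4 tested members lie on chromosome 11, Irgm1 apart from Gm12250, Igtp and Irgm2, which follow one another in that order. Within 250 kb of the 5 members lay 42 other genes, of which 20 were tested, 1 rose, 6 fell and 13 did not pass. The 7 calls among 20 neighbours were below the 47.2% called over all tested genes, and the 6 that fell were near the 23.6% that fell. The gene that rose was Ifi47, and the log2 fold changes of all 20 ran from -0.50 to 0.55 with a median of -0.13. The nearest tested gene was Mrpl22, a mitochondrial ribosomal protein gene 4.26 kb from Gm12250, with a log2 fold change of -0.11 (edgeR adjusted p = 0.215). Gemin5, which encodes a protein of the complex that assembles spliceosomal particles and lies 15.3 kb from Gm12250, had a log2 fold change of -0.24 (edgeR adjusted p = 0.000211). No tested neighbour reached the fold change of any tested member.

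The largest negative value was that of Psme2b, 73.9 kb from Irgm1 and related to a proteasome activator subunit, with 27.6 ± 0.361 CPM in IRF2_KO and 39.1 ± 0.604 CPM in Parental libraries (SD, n = 3 each; log2 fold change -0.50, edgeR adjusted p = 4.26e-07). Zfp672 had a log2 fold change of -0.42 and Larp1, which encodes an RNA-binding regulator of translation, one of -0.23. The calls of the small nucleolar RNA Snord96a (-0.47) and of Sh3bp5l (-0.17) each depended on single libraries. That of Snord96a was lost without IRF2_KO library 2 or 3 or Parental library 1 or 3 (adjusted p of 0.0823, 0.188, 0.129 and 0.0730), and that of Sh3bp5l without IRF2_KO library 1 or Parental library 2 or 3 (adjusted p of 0.115, 0.117 and 0.168). With DESeq2 neither passed (adjusted p of 0.0791 for Snord96a and 0.0542 for Sh3bp5l). On chromosome 18, the tested neighbours of Iigp1 were Smim3, Dctn4 and Rbm22, and none of them passed.

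**Figure D4:**
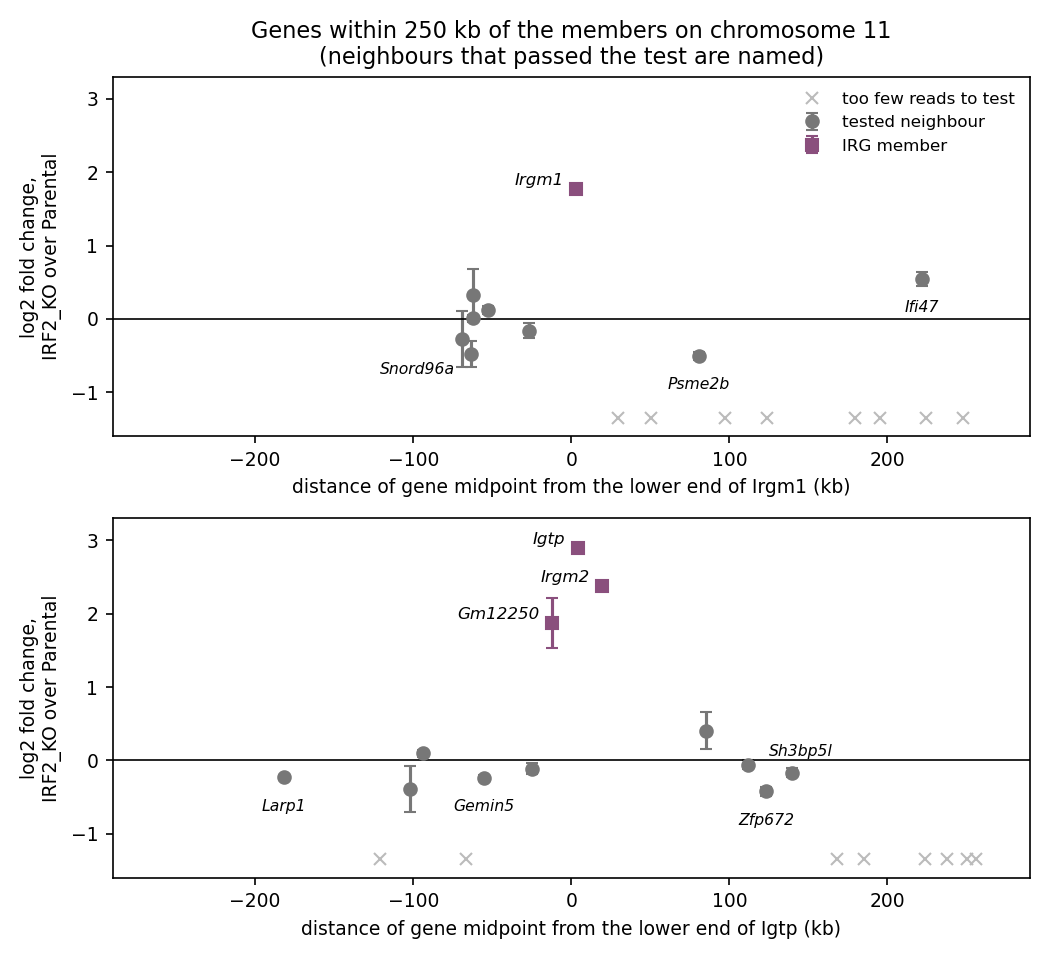
Log2 fold change of IRF2_KO over Parental with its SE (bars) against the distance in kb from Irgm1 (upper) and from Igtp (lower) for genes within 250 kb on chromosome 11; crosses mark genes with too few reads to test. The members, at 1.77 to 2.89, stand above tested neighbours, which lie between -0.50 and 0.55.

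For each tested member, the 3 genes outside the members with the most similar profile were found. Similarity was the Euclidean distance between log2 CPM profiles over the 6 libraries, each centred on its own mean. Nearest to Irgm1 were Ccn3 (0.123), Ly6a (0.152) and Ccr1 (0.153), and nearest to Irgm2 were Tlr13 (0.156), Adgrl2 (0.171) and Pkp2 (0.202). Nearest to Igtp were Slfn1 (0.121), Cybb (0.175) and Lpl (0.236). The nearest genes to Gm12250 were farther off, Sardh at 0.644, Colec12 at 0.700 and Pou2f2 at 0.751. These distances are a description of 6 libraries in 2 groups, and a small one follows largely from a similar fold change. Slfn1, a Schlafen family gene that like Igtp lies on chromosome 11, had 10.7 ± 0.212 RPKM in IRF2_KO and 1.48 ± 0.0896 RPKM in Parental libraries (SD, n = 3 each). Cybb, a subunit of the phagocyte NADPH oxidase, had 25.4 ± 1.62 RPKM in IRF2_KO and 3.34 ± 0.139 RPKM in Parental libraries (SD, n = 3 each). The tested members were left out of this search, so it does not show how near they lay to each other.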

How the data were processed

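RNA of 3 IRF2_KO and 3 Parental libraries was prepared with a stranded total RNA kit, per the labels' protocols; the molecule label says polyA RNA, and no source used here says whether counting used strand. The authors deposited raw read counts per Entrez gene, of reads aligning uniquely to a gene model, and size-factor-adjusted RPKM values, per the file headers; within each library RPKM was the count per model length times 1 factor. Alignment used GSNAP and genome build GRCm38, per the submitters' processing notes, which give no version.

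Of 36528 identifiers, 31049 had a RefSeq symbol, and those without held 1.86% to 1.92% of counts. The counts were fitted with edgeR 4.0.16 in R 4.3.3 (filterByExpr, TMM, robust quasi-likelihood F-test, two-sided, Benjamini-Hochberg over all 13353 tested genes, threshold 0.05), with limma 3.58.1 and DESeq2 1.42.0 as alternatives. The edgeR fit was tested on simulated data with far fewer changed genes than were called here. That simulation does not show how the fit behaves when so many genes change. The SE of an edgeR log2 fold change was back-calculated, as its absolute value divided by the square root of the F statistic. Exact permutation tests and intervals used SciPy 1.17.1. Intervals and the floor of 3 reads cover counting error only. No 2 libraries were within sampling noise of each other, so none were merged.

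The members and gene lists were chosen with earlier results of these data known. Named genes are the members, the listed genes of the family, of GBPs, of vacuole ubiquitin and of interferon signalling, the called conjugation genes, Irf2, the tested neighbours within 250 kb, the 3 genes nearest in profile to each tested member, and cell type markers. One listed gene, Gm12187, had no match, and 1 listed signalling gene is counted but not reported here. A comparison of proteins was planned; coding sequences were compared in its place. Other normalizations, filters, tests, pseudocounts and each library left out were tried.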

Additional observations from a re-analysis of the deposited data

How the results depend on the processing

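Irgm1, Irgm2 and Igtp kept their direction and call under all 16 alternatives each, with log2 fold changes of 1.66 to 1.79, 2.23 to 2.41 and 2.75 to 2.91. Gm12250 kept both under its 15 alternatives, from 0.32 with log2(RPKM + 1) to 2.27 without Parental library 2; it did not reach 1 CPM in 3 libraries and has no value under that filter. Iigp1 was tested only without a filter on low counts (edgeR log2 fold change 2.45, adjusted p = 0.201), and has no value under RLE or upper-quartile factors, DESeq2, limma-voom, the 1 CPM filter or removal of the 100 most abundant genes. The number of genes called, 6296, was 1019 (718 higher and 301 lower in IRF2_KO) when tested against a 1.5-fold change, 6518 (2787 higher and 3731 lower) with library size alone against 3146 higher and 3150 lower with TMM, and 5256 to 6216 with 1 library left out. With 1 library left out, the difference in the Iigp1 share lay between -0.000338 and 0.0170 percentage points, the log2 difference of Gm12250 over Irgm1 between -0.27 and 0.64 (and at -0.50 with RPKM + 0.1), that of Irgm2 over Gm12250 between -0.10 and 0.90, and the count of vacuole ubiquitin genes called between 1 and 2. The differences that changed sign all rest on Gm12250 or Iigp1, the members with the fewest reads; the cause was not tested. No paired analysis was possible because the labels give no replicate numbers that could pair libraries across groups. Depth limits what can be said of Iigp1, Tgtp2 and the other IRG genes with a handful of reads.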
